A study of Mus musculus with 5 samples.

Results

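The acute phase group described here consisted of 10 genes that encode plasma proteins of the liver: the alpha-1-acid glycoproteins Orm1, Orm2 and Orm3, the serum amyloid A genes Saa1, Saa2 and Saa4, haptoglobin (Hp), serum amyloid P component (Apcs), inter-alpha-trypsin inhibitor heavy chain 4 (Itih4) and lipocalin 2 (Lcn2). The members were taken by gene symbol, and all 10 were found among the 18018 genes of the table. They were chosen by their levels in the diet comparison of the same data, where some were lower and others higher on the high fat diet, so their levels by diet are a description, and whether a member was called there is stated only beside the share of all genes called and supports nothing. Single hepatocytes were sequenced with Drop-seq, in which mRNA caught in a droplet receives a barcode for its cell and a molecular identifier (UMI) for itself and is read near its 3′ end. All mice were male C57BL/6J littermates, 8 weeks old when the diets began. A high fat diet (HFD, 3 mice) or a regular diet (LFD, 2 mice) was given for 12 weeks, and no other treatment or allele is named in the labels. The design asks how hepatocytes on the high fat diet differ from those on the regular diet.

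In the acute phase response, cytokines released at a site of inflammation, above all IL-6 and IL-1, act on hepatocytes through STAT3, NF-kB and C/EBP factors, with glucocorticoids as co-inducers. Transcripts of positive acute phase proteins then increase, while those of negative ones such as albumin and transthyretin decrease. Hepatocytes also differ by their place in the liver lobule, and genes of plasma protein synthesis are known to be used more by periportal than by pericentral cells.

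The table held 238 cells of HFD mice and 216 cells of LFD mice, and no cell barcode was shared between mice (0 of 454). There were 5, 208 and 25 cells (27903, 656803 and 58470 UMIs) from HFD mice 1, 2 and 3, against 132 and 84 cells (446868 and 309050 UMIs) from LFD mice 1 and 2. Of 25 hepatocyte markers, 23 or 24 were found in over 50% of the cells of each mouse. Most markers of other cell types were at or near 0: 10 of 11 neutrophil markers, 11 of 12 T or NK cell markers and 4 of 5 B cell markers had no UMI in any mouse, and macrophage markers summed to 0 to 35.8 CPM in HFD mice and 12.9 to 51.5 CPM in LFD mice, with Lyz2 at 0. HFD mouse 1 stood apart. Its cells had a median of 6598 UMIs but 636 genes, 8.98% of its UMIs were mitochondrial against 5.10% to 5.63% in the other mice, and markers of sinusoidal endothelial cells came to 1469 CPM there against 19.4 to 35.0 CPM elsewhere. Erythroid markers came to 609, 129 and 393 CPM in HFD mice 1, 2 and 3, against 87.3 and 90.6 CPM in LFD mice. The labels name the raw reads of HFD mouse 3 in another way than those of the rest. Values are therefore given per mouse, and the members were also fitted with HFD mouse 1 left out and with HFD mouse 3 left out.

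Levels are UMIs summed per mouse and scaled to a total of 1e+06 (CPM). A gene without a UMI could still lie as high as 108, 4.57 and 51.3 CPM in HFD mice 1, 2 and 3 and 6.71 and 9.71 CPM in LFD mice 1 and 2, the levels that 3 counts would give. Such limits, and all intervals below, cover counting error only.

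Taken as a sum, the alpha-1-acid glycoprotein transcripts were lower in HFD mice. Orm1, a plasma carrier of drugs and lipophilic molecules whose human counterpart is a classic acute phase reactant, stood at 179, 455 and 599 CPM (5, 299 and 35 UMIs) in HFD mice 1, 2 and 3, against 1786 and 1686 CPM (798 and 521 UMIs) in LFD mice 1 and 2. All 3 HFD mice lay far below both LFD mice, and HFD mouse 1, the smallest library, was lowest. Means were 411 ± 213 CPM in HFD mice (SD, n = 3) and 1736 ± 70.7 CPM in LFD mice (SD, n = 2), and the log2 fold change of limma voom was -2.13 (SE 0.37). Without HFD mouse 1 it was -1.84 (SE 0.17), and without HFD mouse 3 it was -2.32 (SE 0.51).

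Orm2 and Orm3, close paralogs of Orm1, were rare and had fewer UMIs in HFD mice. Orm2 had 0, 2 and 1 UMIs in HFD mice 1, 2 and 3 (0, 3.05 and 17.1 CPM) and 11 and 16 UMIs in LFD mice (24.6 and 51.8 CPM). Pooled over the mice of a diet, 3 UMIs in HFD mice against 27 in LFD mice gave a ratio of 0.113 (95% interval from 0.0219 to 0.367). Orm3 had no UMI in any HFD mouse, against 8 and 7 UMIs in LFD mice (17.9 and 22.7 CPM). The limit of 3 counts over the pooled HFD mice was 4.04 CPM, which put Orm3 at least 4.92-fold lower there than in LFD mice. In LFD mice the share of cells with Orm3, given below, was near that of Spp1, a cholangiocyte gene. No difference in expression is therefore read from this bound. In HFD mice 1 and 3 the LFD levels of Orm3 lay under the limit of detection, so the bound rests on HFD mouse 2. The measured values of the 3 genes did not overlap between diets. Among the 3614 genes that passed a filter on low values, 14.3% had every HFD mouse below every LFD mouse. Orm1 passed that filter but Orm2 and Orm3 did not, so this share is no background for them. For Orm2 and Orm3, the counts of 0 or 1 UMI in HFD mice 1 and 3 allow levels as high as those of the LFD mice, so their order rests on HFD mouse 2.

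The family lies in one cluster on chromosome 4 (GENCODE vM21, GRCm38, all on the + strand and protein coding): Orm1 at chr4:63344560-63348163, Orm3 at chr4:63356162-63359511 and Orm2 at chr4:63362449-63365878, with 7998 and 2937 bases between neighbours. The coding sequences of Orm1 and Orm2 are identical at 89.9% of aligned bases, and the last 300 bases of their transcripts, near the end that Drop-seq reads, at 97.7%. Those of Orm1 and Orm3 are identical at 86.4% and 91.3%. The sources used here do not say how reads matching several copies were treated, so the split between the 3 genes is uncertain, while their sum is less so. The sum was 179, 458 and 616 CPM in HFD mice 1, 2 and 3 and 1828 and 1760.2 CPM in LFD mice 1 and 2. Orm1 made up 97.2% to 100% of it in HFD mice and 95.8% and 97.7% in LFD mice.

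Promoter windows of 300 bases (250 before to 50 after the start, RefSeq, GRCm38.p6) were available for 8 of the 10 members, but not for Orm1 and Hp. They were searched on both strands for TTCNNNGAA (a STAT motif), TTNNGNAA (a C/EBP motif), TATAAA and an NF-kB motif. Over 32851 promoters of the same length these matched 8.30%, 40.7%, 13.6% and 8.46%. The windows of Orm2 (chr4:63362199-63362498, + strand) and Orm3 (chr4:63355908-63356207, + strand) are shown because both genes had few UMIs in HFD mice. They were identical at 89.2% of aligned bases, and capitals mark the C/EBP matches and, nearer the end, TATAAA.
Orm2: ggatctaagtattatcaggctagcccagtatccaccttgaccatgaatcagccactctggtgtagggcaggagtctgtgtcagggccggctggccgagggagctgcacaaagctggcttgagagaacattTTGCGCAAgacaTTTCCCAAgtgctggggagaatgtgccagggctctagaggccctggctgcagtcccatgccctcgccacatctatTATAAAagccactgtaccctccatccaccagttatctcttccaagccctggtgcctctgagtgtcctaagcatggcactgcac
Orm3: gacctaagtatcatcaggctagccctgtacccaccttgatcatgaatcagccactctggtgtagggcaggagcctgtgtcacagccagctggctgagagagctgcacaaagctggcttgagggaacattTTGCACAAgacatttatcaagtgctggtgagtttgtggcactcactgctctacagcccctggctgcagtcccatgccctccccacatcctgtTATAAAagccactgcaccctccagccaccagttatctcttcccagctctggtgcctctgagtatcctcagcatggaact
A C/EBP match began at -120 in Orm2 and at -121 in Orm3, counted from the start, and Orm2 held a further one at -108. TATAAA began at -33 in Orm2 and -29 in Orm3, none of the matches overlapped, and neither window held a STAT or NF-kB match.

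The levels of the 3 serum amyloid A genes overlapped between diets. Saa1 and Saa2 encode acute phase apolipoproteins carried on HDL, and Saa4 encodes a constitutive HDL apolipoprotein. Saa1 stood at 0, 62.4 and 257 CPM (0, 41 and 15 UMIs) in HFD mice 1, 2 and 3 and at 222 and 188 CPM (99 and 58 UMIs) in LFD mice 1 and 2. The groups overlapped: HFD mouse 2 was low, HFD mouse 3 was as high as the LFD mice, and the 0 of HFD mouse 1 allows up to 108 CPM. Means were 106 ± 134 CPM in HFD mice (SD, n = 3) and 205 ± 23.9 CPM in LFD mice (SD, n = 2), with a log2 fold change of -1.46 (SE 0.66). The value was -1.45 (SE 0.31) without HFD mouse 1 and -2.68 (SE 0.75) without HFD mouse 3.

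Saa2 was measured on few UMIs, with 0, 19 and 1 in HFD mice 1, 2 and 3 (0, 28.9 and 17.1 CPM) and 9 and 18 in LFD mice 1 and 2 (20.1 and 58.2 CPM). The groups overlapped, and 11 of the 19 UMIs of HFD mouse 2 lay in a single cell. Pooled, the ratio of HFD over LFD mice was 0.753 with a 95% interval from 0.401 to 1.39. Saa4 stood at 645, 193 and 291 CPM (18, 127 and 17 UMIs) in HFD mice 1, 2 and 3 and 233 and 210.3 CPM (104 and 65 UMIs) in LFD mice 1 and 2. HFD mouse 2 was lowest and the other HFD mice were above the LFD mice, but 17 of the 18 UMIs of HFD mouse 1 came from 1 cell. Its log2 fold change was 0.25 (SE 0.47), -0.08 (SE 0.22) without HFD mouse 1 and 0.32 (SE 0.67) without HFD mouse 3. Saa4 made up 100%, 67.9% and 51.5% of the UMIs of the 3 Saa genes in HFD mice 1, 2 and 3, against 49.1% and 46.1% in LFD mice.

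The Saa genes lie together on chromosome 7: Saa4 at chr7:46727998-46732603 and Saa1 at chr7:46740497-46742980, both on the - strand, and Saa2 at chr7:46751790-46754313 on the + strand. Coding sequences of Saa1 and Saa2 are identical at 95.1% of aligned bases and their last 300 bases at 94.3%, so their split is uncertain too. Saa1 and Saa4 are identical at 69.6% and 65.5%. The summed level of Saa1 and Saa2 was 0, 91.4 and 274 CPM in HFD mice 1, 2 and 3 and 242 and 246 CPM in LFD mice 1 and 2. The promoter windows of Saa1 (chr7:46742931-46743230, - strand) and Saa2 (chr7:46751583-46751882, + strand), which point away from each other, are shown because the genes share 96.0% of aligned promoter bases. Capitals mark the C/EBP matches.
Saa1: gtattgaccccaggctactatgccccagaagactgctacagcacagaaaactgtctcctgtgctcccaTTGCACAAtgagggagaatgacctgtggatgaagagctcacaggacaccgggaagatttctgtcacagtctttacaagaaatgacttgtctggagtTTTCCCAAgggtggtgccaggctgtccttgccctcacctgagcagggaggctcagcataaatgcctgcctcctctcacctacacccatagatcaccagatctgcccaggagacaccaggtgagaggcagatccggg
Saa2: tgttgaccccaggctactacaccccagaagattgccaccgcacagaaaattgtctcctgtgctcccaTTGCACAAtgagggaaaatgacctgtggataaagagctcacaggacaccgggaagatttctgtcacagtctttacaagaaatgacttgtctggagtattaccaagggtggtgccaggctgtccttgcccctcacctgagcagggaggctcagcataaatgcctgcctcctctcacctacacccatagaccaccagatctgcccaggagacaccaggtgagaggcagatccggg
A C/EBP match began at -182 in Saa1 and at -183 in Saa2. Saa1 had another at -86 that Saa2 lacked, and neither window had a STAT, NF-kB or TATAAA match.

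Haptoglobin, which binds free haemoglobin in plasma, showed no order by diet. Hp stood at 2939, 2202 and 3882 CPM (82, 1446 and 227 UMIs) in HFD mice 1, 2 and 3 and at 3023 and 2760.1 CPM (1351 and 853 UMIs) in LFD mice 1 and 2. HFD mouse 2 was the lowest mouse and HFD mouse 3 the highest, so the LFD mice lay within the HFD range. Means were 3008 ± 842 CPM in HFD mice (SD, n = 3) and 2892 ± 186 CPM in LFD mice (SD, n = 2), and the log2 fold change was -0.18 (SE 0.26). It was -0.13 (SE 0.18) without HFD mouse 1 and -0.30 (SE 0.33) without HFD mouse 3. Hp lies at chr8:109575128-109579172 on the - strand.

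The measured levels of Apcs and Itih4 were higher in every HFD mouse than in both LFD mice, an order found for 8.88% of all tested genes. Apcs, a pentraxin and a major acute phase reactant of the mouse, stood at 824, 189 and 188 CPM (23, 124 and 11 UMIs) in HFD mice 1, 2 and 3 and at 143 and 155 CPM (64 and 48 UMIs) in LFD mice 1 and 2. The groups did not overlap, but HFD mice 2 and 3 lay close above the LFD mice, and 20 of the 23 UMIs of HFD mouse 1 came from 1 cell. The log2 fold change was 0.72 (SE 0.55), 0.34 (SE 0.23) without HFD mouse 1 and 0.97 (SE 0.76) without HFD mouse 3. Itih4, a plasma protein related to the heavy chains of inter-alpha-trypsin inhibitor, stood at 1111, 904 and 1060.4 CPM (31, 594 and 62 UMIs) in HFD mice 1, 2 and 3 and at 830.2 and 657 CPM (371 and 203 UMIs) in LFD mice 1 and 2. All HFD mice lay above both LFD mice by a small margin. Means were 1025 ± 108 CPM in HFD mice (SD, n = 3) and 744 ± 123 CPM in LFD mice (SD, n = 2), with a log2 fold change of 0.34 (SE 0.31) in 5 mice, 0.33 (SE 0.17) without HFD mouse 1 and 0.36 (SE 0.41) without HFD mouse 3.

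Apcs lies at chr1:172893961-172895041 (- strand) and Itih4 at chr14:30886476-30902353 (+ strand). Their promoter windows, chr1:172895005-172895304 (- strand) and chr14:30886226-30886525 (+ strand), are shown because these were the members with higher measured levels in every HFD mouse. Among the 8 windows only these held a STAT match. Orm1 and Hp could not be searched, so no link of the match with diet is read. Capitals mark the STAT match and, at the right in Itih4, TATAAA read on the other strand.
Apcs: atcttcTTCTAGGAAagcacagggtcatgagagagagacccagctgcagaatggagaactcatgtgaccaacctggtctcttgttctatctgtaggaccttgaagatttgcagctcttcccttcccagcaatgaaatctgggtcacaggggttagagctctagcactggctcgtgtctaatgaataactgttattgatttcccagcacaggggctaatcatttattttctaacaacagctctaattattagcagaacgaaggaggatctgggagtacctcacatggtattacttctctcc
Itih4: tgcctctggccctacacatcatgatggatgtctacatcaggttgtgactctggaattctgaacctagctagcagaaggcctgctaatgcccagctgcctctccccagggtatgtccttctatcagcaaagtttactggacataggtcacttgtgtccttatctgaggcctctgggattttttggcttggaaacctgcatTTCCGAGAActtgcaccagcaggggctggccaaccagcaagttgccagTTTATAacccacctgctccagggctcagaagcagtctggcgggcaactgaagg
The STAT match began at -244 in Apcs and at -51 in Itih4. No window of the 8 held an NF-kB match, and Saa4 (matches at -245 and -52) and Lcn2 (a match at -216) each held the C/EBP motif. These matches describe letters and were not tested as binding sites.

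Lcn2, a siderophore-binding lipocalin of neutrophil granules and of stimulated hepatocytes (chr2:32384633-32388252, - strand), was hardly detected. It had 0, 2 and 0 UMIs in HFD mice 1, 2 and 3 and 0 and 1 in LFD mice 1 and 2. Both diets lay under the limit of 3 counts, so no fold change is given. Saa3, the family member known from macrophages and adipose tissue, had 0, 8 and 0 UMIs in HFD mice and 8 and 3 in LFD mice.

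**Figure D1:**
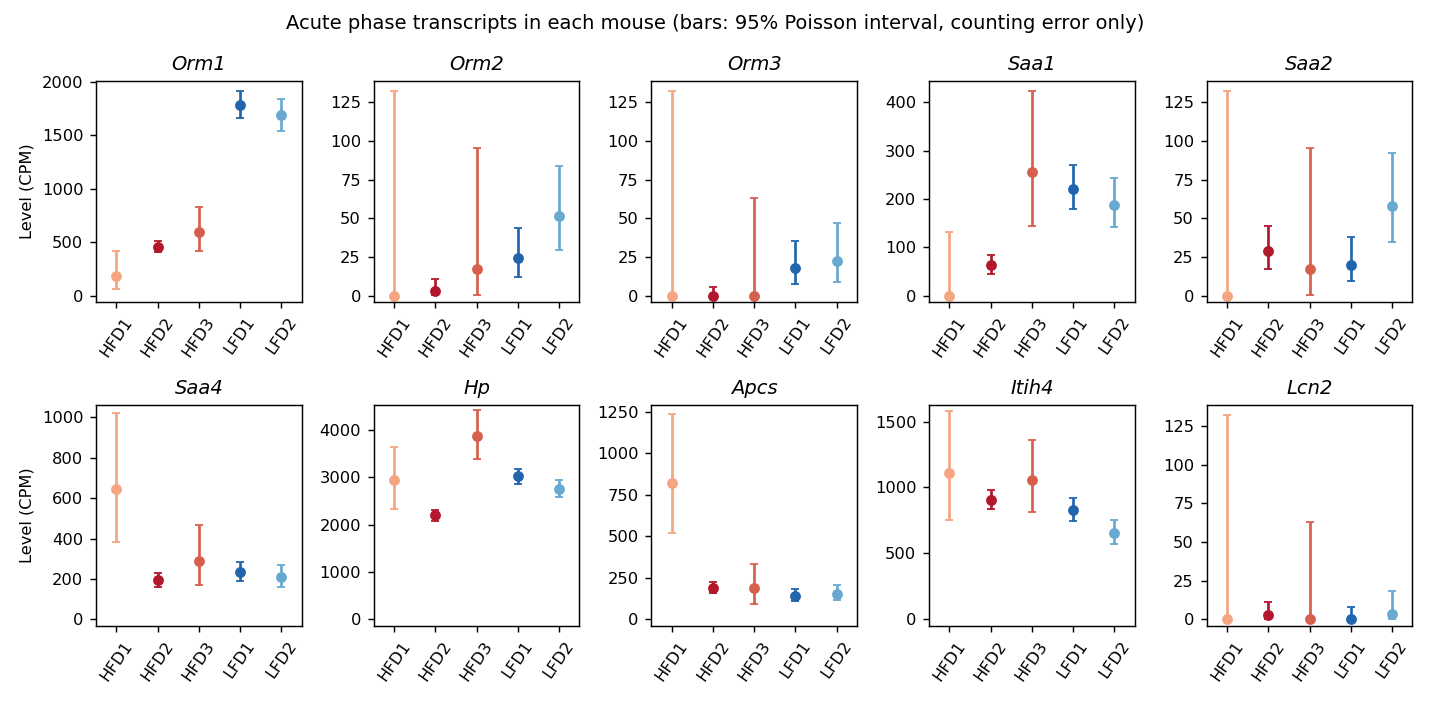
Level of each gene in each mouse in CPM (points) with the 95% Poisson interval of its UMI count (bars, counting error only), with HFD mice in red shades and LFD mice in blue. Orm1 lies between 179 and 599 CPM in HFD mice against 1686 and 1786 CPM in LFD mice, whereas Hp spans 2202 to 3882 CPM in HFD mice around the LFD values.

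With 5 mice, 6 of the 10 members passed the filter on low values in the fit of limma voom over 3614 genes, and Orm2, Orm3, Saa2 and Lcn2 did not. Orm1 was the 1 member called at an adjusted p of 0.05, where 0.221% of all tested genes were called, 0.0553% higher and 0.166% lower. Without HFD mouse 1, Orm1 and Saa1 were called of 7 members tested, where 3.38% of 3670 genes were called, 1.28% higher and 2.1% lower. Without HFD mouse 3, no member and no gene was called (0 of 3609 genes with limma voom, 135 at an unadjusted p under 0.05). Among all tested genes, 14.3% had every HFD mouse below every LFD mouse and 8.88% had every HFD mouse above, and without HFD mouse 1 these shares were 20.2% and 20.6%. Since the members were chosen with these differences known, nothing is read from these counts. The median log2 fold change was -0.08 over all tested genes and 0.03 over the 6 members. Endothelial and erythroid marker levels and the mitochondrial share also differed in HFD mouse 1, and their part in the members' values was not tested. For Orm1, Orm2, Orm3, Apcs and Itih4 the measured values did not overlap between diets in 5 mice. Leaving a mouse out cannot change that order, so it is no check of it.

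The shares of the members within the group are given as a description, since a choice of genes that moved in both directions shifts them. The 10 members made up 0.570%, 0.404% and 0.631% of all UMIs in HFD mice 1, 2 and 3 and 0.630% and 0.579% in LFD mice 1 and 2, which overlapped. Orm1 accounted for 3.14%, 11.3% and 9.49% of the members' UMIs in HFD mice 1, 2 and 3, against 28.3% and 29.1% in LFD mice 1 and 2. The share of Itih4 was 19.5%, 22.4% and 16.8% in HFD mice 1, 2 and 3, against 13.2% and 11.3% in LFD mice, and that of Hp was 51.6%, 54.5% and 61.5% against 48.0% and 47.7%. There were 16.4, 4.84 and 6.49 Hp UMIs per Orm1 UMI in HFD mice 1, 2 and 3, against 1.69 and 1.64 in LFD mice. The share of Saa4 was 11.3%, 4.79% and 4.61% in HFD mice 1, 2 and 3 against 3.69% and 3.63% in LFD mice, and that of Apcs was 14.5%, 4.67% and 2.98% against 2.27% and 2.68%. The shares are tied to each other because they sum to a whole, so a lower share of a gene raises those of others. The shares of Hp and Saa4 did not overlap between diets, although their levels in CPM did. No background over all genes was computed for such shares, so nothing is read from their order.

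To compare the number of cells in which a member was found, each cell was thinned to 1728 UMIs, which left out 85 HFD and 28 LFD cells with fewer. Median depth before thinning was 2181.5 UMIs per HFD cell and 2795 UMIs per LFD cell. Orm1 was found in 60.0% of 5 cells, 53.0% of 134 cells (exact 95% binomial interval 44.2% to 61.7%) and 71.4% of 14 cells in HFD mice 1, 2 and 3. In LFD mice 1 and 2 it was found in 93.9% of 114 cells (87.8% to 97.5%) and 93.2% of 74 cells (84.9% to 97.8%). The mean share was 61.5% ± 9.31 in HFD mice (SD, n = 3) and 93.6% ± 0.436 in LFD mice (SD, n = 2), and without thinning it was 63.1% ± 2.80 and 98.9% ± 1.61. With cells thinned to 1000 UMIs it was 38.3% ± 1.48 in HFD mice and 86.0% ± 2.73 in LFD mice. At 1728 UMIs the intervals of HFD mouse 2 and both LFD mice did not overlap. Those of HFD mouse 1 (14.7% to 94.7%) and HFD mouse 3 (41.9% to 91.6%) overlapped both LFD mice.

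Saa1 was found in 0%, 8.21% and 14.3% of thinned cells of HFD mice 1, 2 and 3, against 26.3% and 25.7% of those of LFD mice 1 and 2. The intervals of HFD mouse 2 (4.17% to 14.2%) and of the LFD mice (18.5% to 35.4% and 16.2% to 37.2%) were apart. HFD mouse 3 rested on 2 of 14 cells (1.78% to 42.8%). Without thinning Saa1 was found in 0%, 12.0% and 36.0% of HFD cells and 34.8% and 42.9% of LFD cells, which overlapped. After thinning, Orm2 was found in 0%, 0.746% and 0% of HFD cells and 6.14% and 5.41% of LFD cells. Orm3 was found in none of the thinned HFD cells, where 0 of 134 cells in HFD mouse 2 allows up to 2.24%, and in 3.51% and 2.70% of LFD cells. Saa4 (20.0%, 27.6% and 35.7% in HFD mice 1, 2 and 3, against 33.3% and 32.4% in LFD mice) and Apcs (20.0%, 29.1% and 28.6% against 21.9% and 25.7%) overlapped between diets. Hp was found in 100%, 90.3% and 100% of HFD cells and 99.1% and 100% of LFD cells, and Itih4 in 60.0%, 76.1% and 92.9% of HFD cells and 70.2% and 66.2% of LFD cells. Since the cells of every mouse carried hepatocyte markers, genes of other cell types served as the background. Spp1, a cholangiocyte gene, was found in 0%, 0.746% and 0% of HFD cells and 2.63% and 2.70% of LFD cells, and Cd5l, a macrophage gene, in at most 0.877% of the cells of any mouse. Kdr, an endothelial gene, was found in 40.0% of the 5 cells of HFD mouse 1 and at most 1.35% of cells elsewhere, and the haemoglobin gene Hbb-bs in 20.0%, 2.24% and 21.4% of cells of HFD mice 1, 2 and 3, against 0.877% and 0% in LFD mice. In HFD mice 1 and 3 the thinned shares of Orm2, Saa1 and Saa2 lay below that of Hbb-bs, so no expression is read from them there. The shares of Saa4 and Apcs in HFD mouse 1 (20.0%) equalled that of Hbb-bs and lay below that of Kdr. In HFD mouse 2 the share of Orm2 (0.746%) equalled that of Spp1 and lay below that of Hbb-bs. No expression is read from these shares either. Without thinning the share of Saa1 in HFD mouse 3 lay above that of Hbb-bs (36.0% against 16.0%). The shares of Orm3 in LFD mice and of Lcn2 (at most 0.746%) were near the background of Spp1. Saa2 was found in 0%, 2.99% and 0% of HFD cells and 3.51% and 8.11% of LFD cells.

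**Figure D2:**
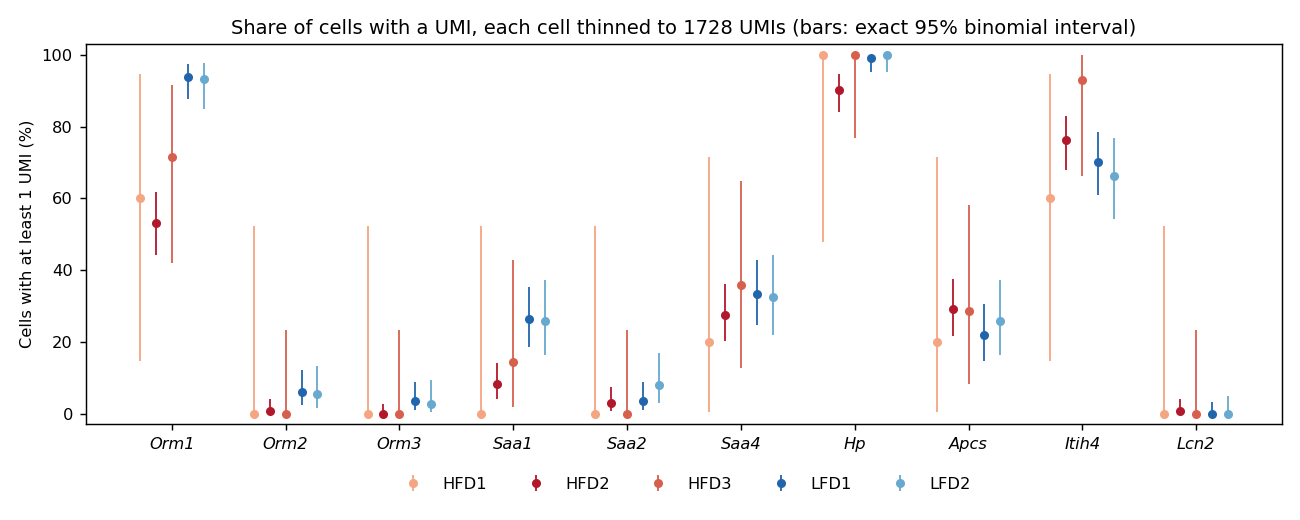
Share of cells with at least 1 UMI of each gene after thinning to 1728 UMIs per cell, in percent, for each mouse, with exact 95% binomial intervals. Orm1 and Saa1 lie lower in HFD mouse 2 (53.0% and 8.21%) than in LFD mice (at least 93.2% and 25.7%), and the intervals of HFD mouse 1 (5 cells) are wide for every gene.

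In the 3 mice with 50 or more cells, the spread over thinned cells differed between members. Orm1 had a mean of 0.739 UMIs per cell in HFD mouse 2 and 2.95 and 2.76 in LFD mice 1 and 2, and a variance over the mean of 1.04, 1.04 and 1.14, close to the value of 1 that counting alone gives. The most Orm1 UMIs in a thinned cell were 5 in HFD mouse 2 and 7 in each LFD mouse. The lower level in HFD mouse 2 was therefore spread over the cells and not concentrated in a few of them. Itih4, Saa4 and Apcs had ratios from 0.753 to 1.39. Hp had ratios of 1.66 in HFD mouse 2 and 1.10 and 2.08 in LFD mice 1 and 2. Saa1 had ratios of 2.30 in HFD mouse 2 and 2.51 and 1.24 in LFD mice 1 and 2, and the highest 12 of 114 thinned cells held 63.3% of its UMIs in LFD mouse 1. Saa2 reached 7.52 in HFD mouse 2, where 1 cell held 10 UMIs after thinning.

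UMIs of Saa1 and Saa2 were found together in some cells. Few cells had Saa2, and the split between these genes is uncertain, so neither separate nor shared use by cells is read from this. Before thinning, 25 of 208 cells of HFD mouse 2 had Saa1. In LFD mice 1 and 2 these were 46 of 132 and 36 of 84 cells. Without thinning, 2 of the 7 Saa2-positive cells of HFD mouse 2 also had Saa1, against 4 of 7 in LFD mouse 1 and 6 of 11 in LFD mouse 2, and cells with both were deeper than the rest (median 4639 UMIs against 2181.5 for all cells in HFD mouse 2). All 9 and 11 Orm2-positive cells and all 8 and 7 Orm3-positive cells of LFD mice 1 and 2 also had Orm1, which was present in nearly every LFD cell.

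**Figure D3:**
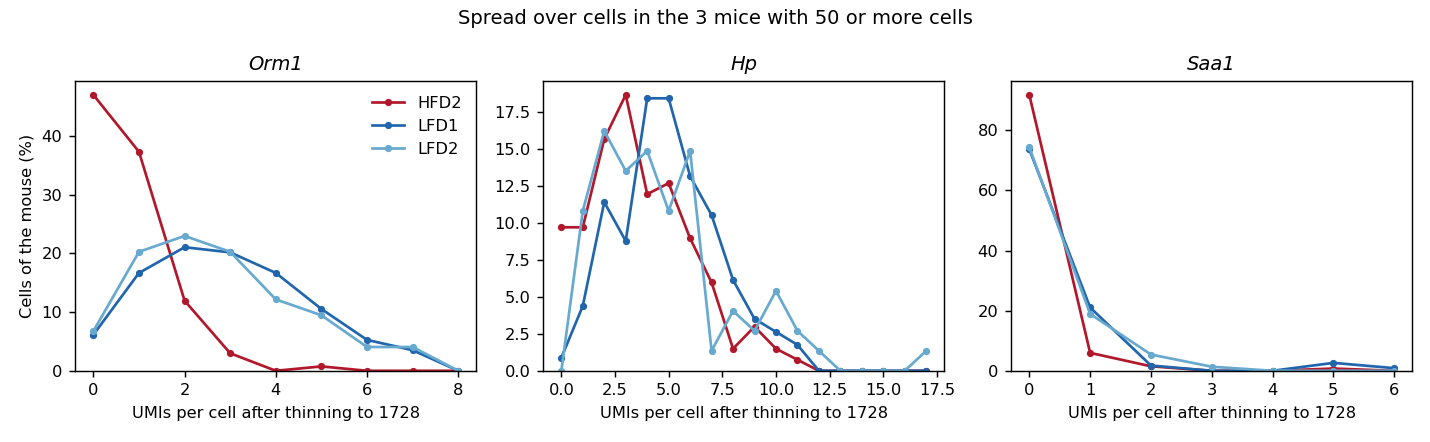
Share of thinned cells (percent, y axis) by the number of UMIs of Orm1, Hp and Saa1 (x axis) in the 3 mice with 50 or more cells. The Orm1 curve of HFD mouse 2 peaks at 0 UMIs and those of LFD mice at 2 UMIs, while most cells of each mouse have no Saa1 UMI.

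Cells were then placed along the lobule axis by the log ratio of 31 pericentral to 33 periportal landmark genes, none of them a member, and the cells of each mouse were divided at the median. The landmark genes Cyp2e1 (pericentral) and Cyp2f2 (periportal) show the scale: over the pericentral, middle and periportal 3 equal parts of HFD mouse 2, Cyp2e1 stood at 3822, 894 and 133 CPM and Cyp2f2 at 161, 644 and 979 CPM. In HFD mouse 1, with 2 cells on each side, Cyp2e1 was at 0 in both outer parts. None of the 6 tested members was called along the axis in 5 mice (0 of 6, limma voom), where 0.0589% of 1698 genes were called. That 1 gene was Mup17, a major urinary protein, named after its value was seen. Unadjusted p-values under 0.05 in limma voom were found for 110 genes, Hp being the 1 member among them, and limma-trend called 0 genes.

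Hp stood at 2557, 1922 and 4162 CPM on the pericentral side of HFD mice 1, 2 and 3, against 3604, 2530.2 and 3623 CPM on the periportal side, and in LFD mice 1 and 2 at 2688 and 2419 CPM on the pericentral side, against 3262 and 3006 CPM on the periportal side. The periportal side was higher in 4 of 5 mice, HFD mouse 3 being the exception. The log2 fold change of pericentral over periportal cells was -0.42 (SE 0.17, limma adjusted p = 0.695), where the median over all genes was -0.31. That median depended on the scaling (-0.16 with library totals alone), and relative to it Hp lay at -0.11. Without HFD mouse 3 Hp was at -0.46 (SE 0.19, limma adjusted p = 0.408) against a median of -0.60, which is 0.13 above all genes, so its direction relative to other genes depended on the mice included. Without HFD mouse 1 the median of all genes was -0.01 and Hp was at -0.37 (SE 0.11, limma adjusted p = 0.0496), just past the threshold and higher on the periportal side in 3 of 4 mice, where 6.63% of 2005 genes were called and 3.49% were lower on the pericentral side. By 3 equal parts from pericentral to periportal, HFD mouse 2 had 1935, 2107 and 2577 CPM of Hp, HFD mouse 3 had 4048, 4293 and 3250.0 CPM, LFD mouse 1 had 2588, 2928 and 3361 CPM, and LFD mouse 2 had 1951, 3043 and 3061 CPM. The level was highest in the periportal part in 3 of these 4 mice.

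The other members had no call along the axis in 5 mice, without HFD mouse 1 or without HFD mouse 3 (0 in limma voom). Itih4 was at -0.35 (SE 0.25, limma adjusted p = 0.705) in 5 mice and higher on the periportal side in 4 of 5 mice. It was at -0.29 (SE 0.14, limma adjusted p = 0.286) without HFD mouse 1 and -0.35 (SE 0.30, limma adjusted p = 0.468) without HFD mouse 3. Relative to the median of all genes, Itih4 lay at -0.04, -0.28 and 0.25 in these fits, so its direction relative to other genes depended on the mice included. Orm1 was at -0.27 (SE 0.21, limma adjusted p = 0.705) in 5 mice, -0.27 (SE 0.13, limma adjusted p = 0.296) without HFD mouse 1 and -0.29 (SE 0.22, limma adjusted p = 0.444) without HFD mouse 3. Relative to the median of all genes, Orm1 lay at 0.04, -0.26 and 0.31 in these fits, so its direction depended on HFD mouse 1. On the pericentral side Orm1 stood at 213, 428 and 744 CPM in HFD mice 1, 2 and 3 and 1645 and 1530.0 CPM in LFD mice 1 and 2. On the periportal side it stood at 180.2, 487 and 506 CPM in HFD mice and 1886 and 1798 CPM in LFD mice. The periportal side was higher in 3 of 5 mice. On each side all HFD mice lay below both LFD mice, which repeats the levels by which the members were chosen, so nothing is read from it. HFD mouse 1 had 3 Orm1 UMIs on the pericentral and 2 on the periportal side. Saa1 (-0.21, SE 0.39), Saa4 (-0.21, SE 0.47) and Apcs (0.09, SE 0.46) were small against their errors, and Saa4 and Apcs changed sign without HFD mouse 1 (0.28 and -0.32). Saa1, Saa4 and Apcs were at -0.48 (SE 0.39), -0.70 (SE 0.62) and 0.32 (SE 0.60) with HFD mouse 3 left out. Depth differed between sides in LFD mice, with medians of 2068 and 2339.5 UMIs per pericentral cell against 3531.5 and 3701.5 UMIs per periportal cell. In HFD mouse 2 these medians were 2219.5 UMIs per pericentral cell and 2058 UMIs per periportal cell. The part of depth in these values was not tested.

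Whether the axis contrast differed between diets was tested by an interaction term. No gene was called in 5 mice (0.0% of 1698 with limma voom, 0 with limma-trend), 5 genes had an unadjusted p under 0.05 with limma voom, and the members' adjusted p lay between 0.987 and 0.996 (limma). Without HFD mouse 1, 0.0998% of 2005 genes were called, which were Mup11 and Cyp3a11, named after their values were seen. The smallest p of a member was then that of Apcs, with a log2 difference between diets of -0.81 (SE 0.43, limma adjusted p = 0.984). Without HFD mouse 3, 0 of 1906 genes were called, 16 had an unadjusted p under 0.05 in limma voom, and the members' adjusted p lay between 0.597 and 0.986.

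**Figure D4:**
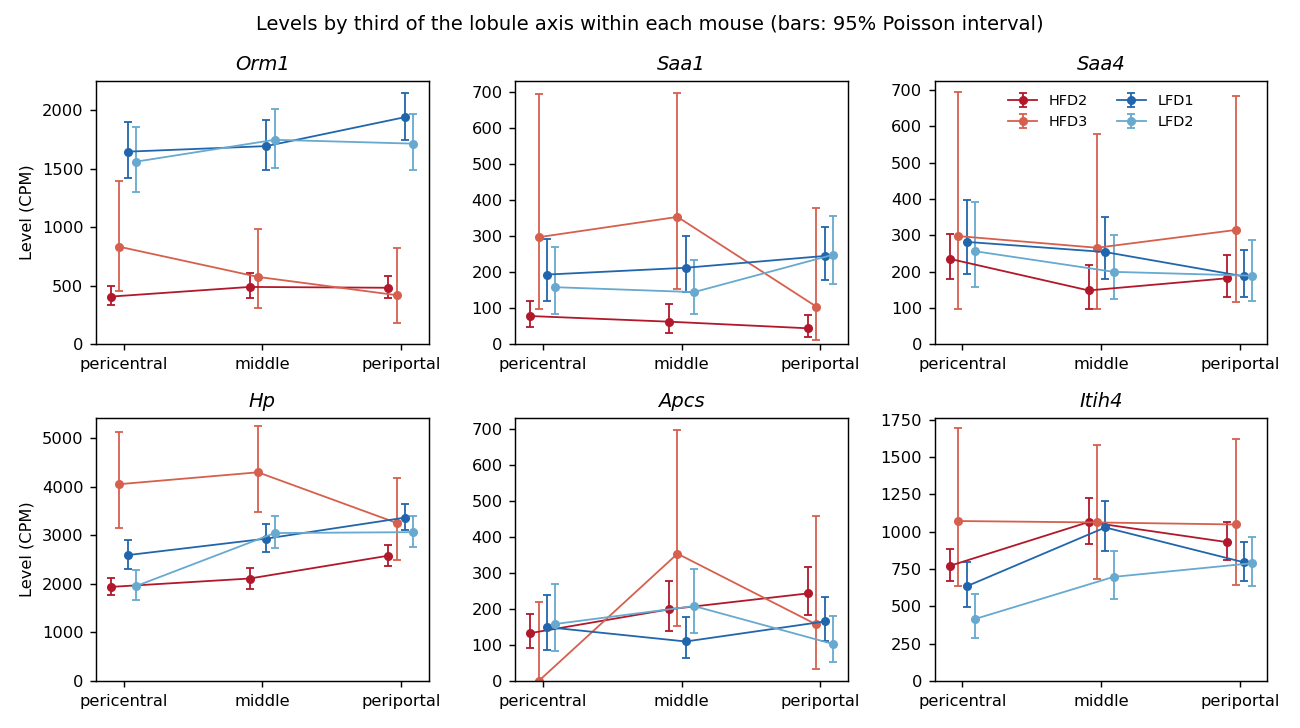
Levels in CPM (y axis) of the 6 members that passed the filter over 3 equal parts of the lobule axis (x axis) in HFD mice 2 and 3 and in both LFD mice, with 95% Poisson intervals. HFD mouse 1 (5 cells) is not drawn. Hp is lowest in the pericentral part in HFD mouse 2 (1935 CPM) and in LFD mice (2588 and 1951 CPM) but not in HFD mouse 3 (4048 CPM).

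Other genes of the acute phase were described by lists. In 5 mice, none of 31 other positive acute phase proteins, 14 negative ones, 11 genes of IL-6, IL-1 and STAT3 signalling, 16 acute phase transcription factors and 6 glucocorticoid-induced genes was called by diet in limma voom (0 in each list, and 0 in limma-trend, where 184 of 3614 genes had an unadjusted p under 0.05 in voom). Their median log2 fold changes were -0.21, -0.10, -0.13, 0.18 and -0.24, beside -0.08 over all genes. Without HFD mouse 1, 2 of 31 positive acute phase genes were called higher and 2 lower, where 1.28% and 2.1% of all genes were. Serpina3m, a serine protease inhibitor of the antichymotrypsin family, stood at 245 and 342 CPM in HFD mice 2 and 3 and 71.6 and 74.4 CPM in LFD mice (log2 fold change 1.83, SE 0.25, limma adjusted p = 0.00042). Hamp, the iron hormone hepcidin and a STAT3 target, stood at 1063 and 2326 CPM in HFD mice 2 and 3 and 745 and 291 CPM in LFD mice (1.49, SE 0.33, limma adjusted p = 0.0173). HFD mouse 1, left out of that fit, lay above the LFD mice for both, at 215 and 2329.5 CPM.

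Serpina1e, an alpha-1-antitrypsin gene, was called lower at 2629 and 274 CPM in HFD mice 2 and 3 against 6492 and 6624 CPM in LFD mice (-2.28, SE 0.48, limma adjusted p = 0.0148). Hpx, the haem-binding hemopexin, was called lower at 991 and 2771 CPM in HFD mice 2 and 3 against 3104 and 2941 CPM in LFD mice (-1.14, SE 0.25, limma adjusted p = 0.0185), although HFD mouse 1 lay at 4229 CPM. Positive acute phase genes thus changed in both directions in these 4 mice. Of the negative acute phase genes, Serpina6, the corticosteroid-binding globulin, was called higher without HFD mouse 1 (1.48, SE 0.33, limma adjusted p = 0.0183). Called lower were Apoa1 (-0.79, SE 0.15, limma adjusted p = 0.0071), the main HDL apolipoprotein, and Ahsg (-0.55, SE 0.14, limma adjusted p = 0.0449), fetuin-A. HFD mouse 1 was above both LFD mice for Apoa1 (14658 against 13317 and 14325 CPM) and for Ahsg (6451 against 4675 and 3941 CPM).

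Among upstream genes, none of the 10 tested genes of IL-6, IL-1 and STAT3 signalling was called without HFD mouse 1 (0 in limma voom). Lifr, a cytokine receptor that signals through gp130, had the smallest p, at 59.4 and 0 CPM in HFD mice 2 and 3 against 123 and 129 CPM in LFD mice (-1.26, SE 0.42, limma adjusted p = 0.121). Jun, a subunit of AP-1, stood at 312 and 325 CPM in HFD mice 2 and 3 and 137 and 113 CPM in LFD mice (1.31, SE 0.22, limma adjusted p = 0.00302), and it was at 71.7 CPM in HFD mouse 1. Dusp1, a phosphatase induced by stress and glucocorticoids, stood at 108 and 188 CPM in HFD mice 2 and 3 and 17.9 and 29.1 CPM in LFD mice (2.41, SE 0.40, limma adjusted p = 0.00241). Dusp1 was the 1 gene called of 6 tested glucocorticoid-induced genes, whose median was -0.19, and Jun the 1 called of 16 transcription factors.

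Along the lobule axis, calls in these lists came from the fit without HFD mouse 1, in which 3.49% of all genes were called higher in periportal cells and 3.14% in pericentral cells. There, 12 of 28 other positive acute phase genes were called higher in periportal cells and 1 in pericentral cells (Mbl2, a mannose-binding lectin, 0.52, SE 0.15, limma adjusted p = 0.0392), with a median of -0.33 against -0.01 over all genes. The smallest p belonged to fibrinogen beta chain (Fgb, -0.80, SE 0.10, limma adjusted p = 3.6e-06), Hpx (-0.91, SE 0.12, limma adjusted p = 6.63e-06) and Serpina1e (-0.85, SE 0.13, limma adjusted p = 7.15e-05). Fgb and Hpx were higher on the periportal side in 4 of 4 mice and Serpina1e in 3 of 4. Of 11 negative acute phase genes, 3 were called toward the periportal side, namely transferrin (Trf, -0.72, SE 0.10, limma adjusted p = 1.35e-05), the vitamin D-binding protein (Gc, -0.47, SE 0.10, limma adjusted p = 0.00243) and transthyretin (Ttr, -0.26, SE 0.08, limma adjusted p = 0.0398). Of 4 glucocorticoid-induced genes, Gadd45g, a growth arrest and stress gene, was called toward the same side (-1.40, SE 0.32, limma adjusted p = 0.00469), while none of 5 signalling genes and 10 transcription factors was called (0 in limma voom, medians -0.05 and -0.36). Their smallest p belonged to the kinase Jak1 (-0.98, SE 0.36, limma adjusted p = 0.116) and to Creb3l3 (-0.36, SE 0.16, limma adjusted p = 0.234), the liver factor CREBH. With HFD mouse 1 included, none of these lists had a call in limma voom (0 in each), and the medians of the positive and negative lists were -0.53 and -0.28 beside -0.31 over all genes. Without HFD mouse 3 no gene of any list was called by diet or along the axis, where 0 of 3609 and 0 of 1906 genes were called in limma voom (135 and 104 at an unadjusted p under 0.05). The value of Hp without HFD mouse 1, -0.37, was close to the median of the positive list in that fit.

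Across single cells the members were only weakly related. Over the 3 mice with 50 or more cells (208, 132 and 84 cells), the highest mean Pearson correlation of a pair of the 5 members found in at least 25% of cells was 0.20, between Hp and Itih4 (0.06 in HFD mouse 2, 0.30 and 0.23 in LFD mice 1 and 2), and Orm1 and Hp had 0.12. Values of the same cells share library and depth, so these are descriptions. Of 974 genes, those with the highest mean correlation to Orm1 were Apoc2 (0.29), an activator of lipoprotein lipase, Mup20 (0.27) and Mup3 (0.22), both major urinary proteins. For Itih4 they were Hpx (0.30), Serpina1e (0.29) and Pigr (0.28), all in the positive acute phase list. For Hp they were the complement component C3 (0.22), Alb (0.22) and the non-coding RNA Malat1 (0.22). For Saa4 they were Gnmt (0.20), Ddah1 (0.17) and D8Ertd738e (0.17), and for Apcs they were Atp5j (0.22), Apoa1 (0.19) and Sc5d (0.17).

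The deposited smoothed table, whose values are averaged over similar cells, showed smaller differences between diets. On the natural log scale the mean value of Orm1 was 2.02, 2.01 and 2.03 in HFD mice 1, 2 and 3 and 2.16 and 2.15 in LFD mice, whereas in the unsmoothed table it was 0.86, 1.30 and 1.42 in HFD mice and 2.79 and 2.77 in LFD mice. In the smoothed table all 7 Orm, Saa and Hp genes were lower in every HFD mouse and Apcs, Itih4 and Lcn2 were higher in every HFD mouse. For Saa1, Saa2, Saa4, Hp and Lcn2 the unsmoothed levels in CPM overlapped between diets, and Lcn2 had 3 UMIs in total. The share of all genes with such an order after smoothing was not computed. By diet, 2556 of 3614 genes were called with the smoothed means, against 14 with the unsmoothed means on that scale. Nothing about the members is therefore read from their order after smoothing.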

How the data were processed

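The main deposited table (454 cells of 5 mice, 18018 genes) is on a natural log scale: its values fit ln(1 + x), where x is a gene's UMIs scaled to 10000 per cell. Undoing this gave whole UMIs for 100% of values above 0 within a tolerance of 0.001. A second table that the authors deposited, named for the smoothing method MAGIC, was taken to be smoothed and on that natural log scale too. STAR 2.6.0a and mm10 were used, per the submitters' processing notes, whereas the sources used here do not give the cell filter, annotation, strand, counting of shared reads or doublet treatment. No doublet caller was run. Column names begin with the title of the mouse, which assigned the cells.

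Members and lists were chosen with earlier results of these data known. Sums of UMIs per mouse entered limma voom (version 3.58.1, under R 4.3.3) with trimmed-mean factors. Benjamini-Hochberg adjustment ran over all genes with a total of 15 UMIs that, in 2 mice or more, reached the CPM worth 10 UMIs in the median-sized library (for the axis, in at least 50% of the sums). For the axis, cells were ranked within a mouse by the log of pericentral over periportal UMIs, each plus 1, and sums of both sides were fitted with mouse as a block, leaving out 2 cells at the median of mice with an odd number. Fold changes are HFD over LFD or pericentral over periportal. Sequences come from RefSeq (GRCm38.p6) and GENCODE vM21. Named are all members, from each list the 3 genes of smallest p, any list gene called where 5 or fewer were, and for members in at least 25% of cells the 3 genes of highest correlation. Scripts were tested on simulated data.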

Additional observations from a re-analysis of the deposited data

How the results depend on the processing

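For the diet contrast, the number of members called (1 in 5 mice, Orm1) was 0 with limma-trend on log2(CPM + 10) or log2(CPM + 50), 0 with no filter on low values, 0 without the 5% of cells with most UMIs, 6 in the smoothed table and 2 without HFD mice 1 and 3 (Orm1 and Saa1, a setting chosen after seeing the data). Leaving out 1 mouse at a time gave 0 to 2 members. The number of genes called (8) was 0 and 0 with limma-trend, 14 with the mean of deposited values, 2556 in the smoothed table, 2 with no filter, 2 without the deepest cells, 202 without HFD mice 1 and 3, and 0 to 124 with 1 mouse left out, 124 being the count without HFD mouse 1. With the replicate number as a block it was 29, with the same 1 member called. The numbers are not a pairing by the labels, and the deviations of same-numbered mice correlated at 0.032 and 0.065. In all 15 alternatives the log2 fold change of Orm1 was below 0 (-2.34 to -0.19). That of Apcs and Itih4 was above 0 (0.03 to 1.51 and 0.02 to 0.62). The value of Saa4 ran from -0.19 to 1.06 and that of Hp from -0.38 to 0.31. Members were chosen with these differences known, and leaving a mouse out cannot change the order of Orm1, Apcs and Itih4 by diet. Their constant sign is therefore no check of a diet difference.

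Along the lobule axis, the number of genes called (1) was 0 with a score from mean log values, 0 with limma-trend, 3 with the outer of 3 equal parts, 4 without the deepest cells, and 0 to 133 with 1 mouse left out, 133 being the count without HFD mouse 1. The number of members was 0 to 1 with 1 mouse left out. The interaction called 0 to 2 genes with 1 mouse left out. Signs turned for Orm1 (0.0275) and Saa1 (0.0931) with the outer parts, for Saa4 with the other score (0.90), and for Apcs with the other score (-0.96) and the outer parts (-1.30). With 1 mouse left out, Saa1 ran from -0.48 to 0.005, Saa4 from -0.76 to 0.28 and Apcs from -0.32 to 0.46. Hp stayed below 0 in all 13 alternatives (-0.64 to -0.29). The share of cells with an Orm1 UMI differed by -32.1 percentage points between HFD and LFD mice at 1728 UMIs and by -47.7 at 1000 UMIs. The causes of these changes were not tested. The 5 cells of HFD mouse 1 and the 25 of HFD mouse 3 limit every value of those mice, and p-values with 2 LFD mice rest on the spread of few animals.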

Other observations

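Crp, the C-reactive protein gene, which is a major acute phase reactant in humans but a minor one in mice, stood at 466, 314 and 137 CPM (13, 206 and 8 UMIs) in HFD mice 1, 2 and 3 and at 465 and 327 CPM (208 and 101 UMIs) in LFD mice 1 and 2. It was chosen after its values were seen, and HFD mouse 1 lay as high as the higher LFD mouse. Serpina1e, called lower in the 4 mice without HFD mouse 1, differed between the HFD mice, with 2545, 2629 and 274 CPM in HFD mice 1, 2 and 3.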
